A study of Caenorhabditis elegans with 22 samples.

Results

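The *bath* and *math* genes were taken as every gene of the count tables whose WormBase name is *bath* or *math* followed by a number. The rule found 73 genes, 36 *bath* and 37 *math*, among the 20392 genes counted. All 73 are annotated as protein coding. A further 19 names of these families, all annotated as pseudogenes, could not be matched to a gene identifier and were not analysed here.

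RNA was sequenced from cells sorted out of dissociated L3 larvae of *C. elegans*, in 11 groups of 2 biological replicates each. Seam cells, the lateral epidermal stem cells, came from *met-2(n4256)* mutants, *set-25(n5021)* mutants, double mutants of both genes and N2, the Bristol wild type, and all these lines carried a green seam reporter and a red AJM-1 junction reporter. Body wall muscle came from the same 4 genotypes in lines that carried a red *myo-3* promoter reporter and a green *baf-1* promoter reporter, and the group of N2 non-muscle cells came from the sort of that N2 line, although a tissue label of these samples names muscle. The remaining groups were muscle in which the *met-2* gene itself was tagged with a degron, a tag that leads to degradation of the protein when auxin is given, grown with auxin or without it. In that strain both groups expressed the plant F-box protein TIR1 from the broadly active *eft-3* promoter, so auxin acted in the whole animal and not in muscle alone. Both genes encode enzymes that methylate lysine 9 of histone H3 (H3K9), a mark of repressed chromatin, and the alleles were carried by the whole animal.

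MATH domain proteins bind other proteins through a meprin and TRAF homology fold. The *bath* genes encode proteins that join this fold to a BTB domain, which in the well studied *C. elegans* member MEL-26 docks on the cullin CUL-3, so that proteins held by the MATH domain are ubiquitinated and degraded. The *math* genes encode MATH proteins without that pairing, and one of them, *math-33*, encodes a deubiquitinase related to mammalian USP7. Most members have no assigned substrate, and the families are expanded in nematodes as groups of neighbouring copies.

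Libraries held between 11883702 and 24752059 counts, and replicates correlated at r = 0.966 to 0.993 on a log2 scale of CPM (counts divided by the library total and scaled to a common total) across genes, which are not independent replicates. Summed CPM of 8 body wall muscle markers lay between 133323 and 188703 in the muscle genotypes, between 140212 and 151362 in degron muscle, between 27417 and 33853 in non-muscle cells, and between 9186 and 13255 in seam cells. Summed CPM of 6 seam markers lay between 364 and 3443 in seam cells, with the lowest values in *set-25*, and at or below 13.8 in every muscle library. Most of that spread among seam libraries was *grd-10*, at 166 to 3213 CPM. The mutated genes still gave counts, and whole-gene counts do not show whether the deleted part was present. *met-2* stood at 26.04 and 27.3 CPM in *met-2* and 40.9 and 35.9 CPM in double mutant muscle against 42.8 and 46.5 CPM in N2 muscle, and at 14.03 to 22.1 CPM in seam cells of both genotypes against 39.3 and 37.04 CPM in N2 seam cells. *set-25* stood at 17.1 to 21.3 CPM in *set-25* and double mutant seam cells against 33.1 and 30.5 CPM in N2 seam cells, and at 5.21 and 7.68 CPM in *set-25* muscle against 10.8 and 9.74 CPM in N2 muscle. In the libraries labelled double mutant muscle it had 11.6 CPM in replicate 1, above both N2 libraries, and 4.11 CPM in replicate 2. These counts do not bear out the *set-25* label of replicate 1, and as whole-gene counts they cannot contradict it. In sorted bulk RNA, fewer cells of a type and less RNA per cell cannot be told apart.

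The families are unevenly placed. On chromosome II lie 61 of the 73 members (26 *bath* and 35 *math*), and the other 12 are spread over chromosomes I, III, IV and V. The largest group of neighbours, members separated by at most 10 other genes, holds 32 of them on chromosome II (10 *bath* and 22 *math*, among them *bath-1*, *bath-2* and *bath-19*). A second group of 7 *bath* genes on the same chromosome holds *bath-28*, *bath-29* and *bath-30*. The members detected in every library lie outside these groups: of those 8, *bath-38* and *bath-44* are on chromosome II without a near neighbour, and the other 6 are on other chromosomes.

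A member was called detected in a library at 10 or more counts. By that measure 45 of the 73 were detected in at least 1 library, 33 of the 36 *bath* genes and 12 of the 37 *math* genes. The families divided into 8 members detected in all 22 libraries, 37 detected in some, 22 that were counted but never reached 10, and 6 without a count in any library (*bath-33*, *math-5*, *math-6*, *math-19*, *math-23* and *math-31*). Across all genes counted 76.1% were detected in at least 1 library and 30.5% in every library, against 61.6% and 10.96% of the families. A member with no count may be expressed below what this depth shows, and reads that fit several near-identical copies were not counted.

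Detection in both libraries of a group differed widely between groups. Among seam cells 15 members reached it in the *met-2* mutant, 10 in the *set-25* mutant and 28 in the double mutant, against 11 in N2. Among muscle 16 members reached it in the *met-2* mutant, 10 in the *set-25* mutant and 15 in the double mutant, against 9 in N2. N2 non-muscle cells had 30 such members, and degron muscle had 20 with auxin against 16 without. Detection of all genes counted moved in part with these numbers. In seam cells 51.1% of all genes reached it in the *met-2* mutant, 45.6% in the *set-25* mutant and 57.8% in the double mutant, against 52.1% in N2. In muscle the share was 36.9% to 38.4% in the 4 genotypes, in N2 non-muscle cells 57.9%, and in degron muscle 48.2% with auxin against 51.4% without. The numbers also depended on the threshold. At 1 count in both libraries 37 members were detected in *met-2* seam cells, 27 in the *set-25* mutant and 47 in the double mutant, against 37 in N2, and 37 with auxin against 39 without, whereas at 1 CPM 15 were detected with auxin against 10 without. For 20 of the 37 members detected in some libraries the highest mean CPM was that of non-muscle cells, for 10 that of double mutant seam cells, and for 1, *bath-10*, that of N2 seam cells.

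**Figure D1:**
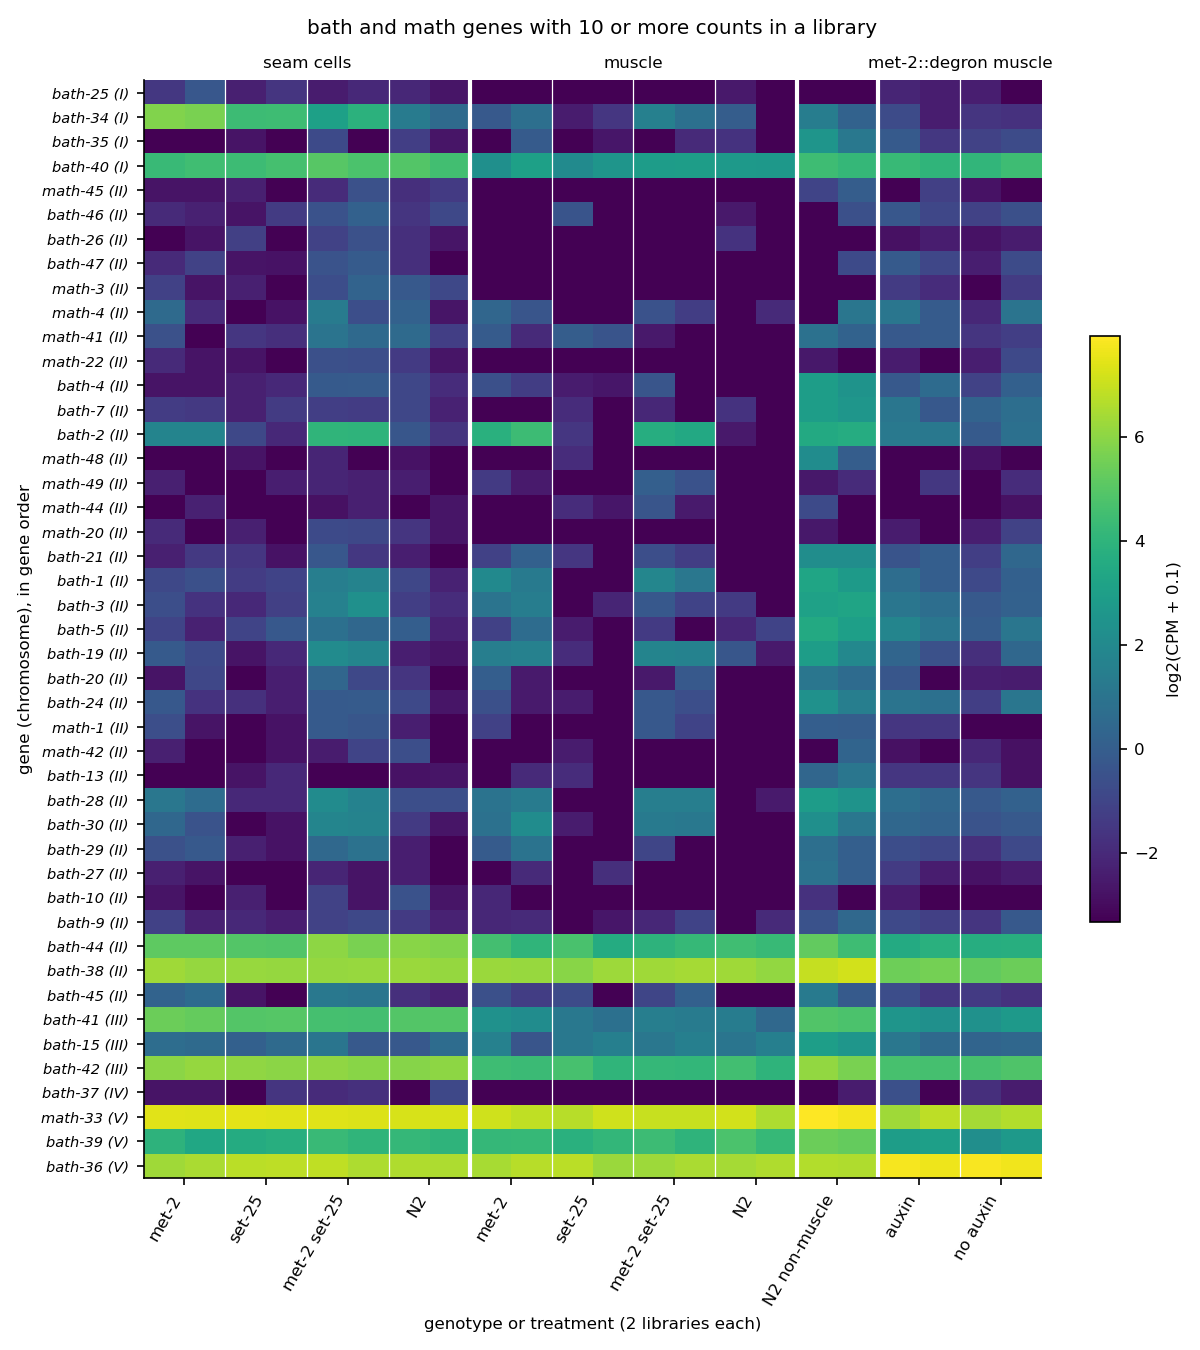
Level of each of the 45 members detected in at least 1 library, as log2(CPM + 0.1), with 1 column per library, 2 per group, and genes in their order along the chromosomes. The 8 members detected in every library form bright rows, whereas most other members are dark in N2 muscle and brighter in non-muscle cells, in *met-2* and double mutant muscle and in double mutant seam cells.

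Among the 8 members detected everywhere, *bath-36*, *bath-38* and *math-33* were the most abundant per length of exon. In N2 seam cells they reached 55.7 ± 1.8, 49.8 ± 2.4 and 36.4 ± 0.46 RPKM (CPM per kilobase of exon, mean ± SD, n = 2), followed by *bath-42* at 36.2 ± 2.3 and *bath-44* at 30.4 ± 2.3 RPKM. In N2 muscle *bath-36* stood at 53.6 ± 4.5, *bath-38* at 50.9 ± 5.4, *math-33* at 28.2 ± 8.3, *bath-39* at 17.2 ± 4.3 and *bath-42* at 11.3 ± 3.0 RPKM. The spreads of *bath-36* and *bath-38* overlapped in N2 muscle and those of *math-33* and *bath-42* in N2 seam cells, so that neither order is set by these libraries.

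*bath-36* stood apart in the degron strain. It had 220 and 204 CPM with auxin and 229 and 209 CPM without auxin in degron muscle, and between 75.3 and 115 CPM in the 18 other libraries. The degron libraries, which came from another strain and table, were thus above all others. *bath-38* and *bath-39* stood the other way, at 37.7 to 48.6 and 4.57 to 8.08 CPM in degron muscle, below the other 18 libraries. These values were not tested, since strain, experiment and table cannot be told apart.

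In N2 muscle compared with N2 non-muscle cells, the question was where the members are expressed in the wild type. No member was called higher and 8 were called lower in muscle (*bath-1*, *bath-2*, *bath-4*, *bath-5*, *bath-21*, *bath-24*, *bath-28* and *bath-41*), out of 30 tested. Calls required an FDR (p adjusted by Benjamini-Hochberg) under 0.01 in edgeR's quasi-likelihood test together with a change above 2-fold, and over all 12107 genes tested 9.17% were called higher and 23.4% lower, so that the share of the families, 26.7% lower, was close to that background. All 30 tested members had 10 or more counts in both non-muscle libraries, and 9 had them in both muscle libraries. The other 21 passed the filter on low counts through the non-muscle group, and such members had to differ.

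*bath-2* had 0.0699 and 0 CPM in N2 muscle and 11.3 and 12.5 CPM in N2 non-muscle cells. That is 1 count against 324 and a ratio of non-muscle to muscle of 327, with a 95% counting interval of 58.3 to 12956. *bath-1* had no count in either N2 muscle library and 9.67 and 6.93 CPM in non-muscle cells, and was at least 77.4-fold lower in muscle, against a floor of 3 counts over the group. Both members were thus nearly silent in N2 muscle with every non-muscle library far above.

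*bath-4*, *bath-21* and *bath-24* were likewise without a count in N2 muscle and were at least 61.2-fold, 41.0-fold and 37.0-fold lower there (FDR = 0.0050, 0.0065 and 0.0084). *bath-28* had 1 count in N2 muscle and 177 in non-muscle cells. *bath-5* had 0.140 and 0.377 CPM in N2 muscle and 11.2 and 8.22 CPM in non-muscle cells (fitted log2 change -3.71, SE 0.80, FDR = 0.0083). These intervals and floors cover counting error only, because they use counts summed over the libraries of a group. They leave out the spread between those libraries, and the reads carry no molecular identifiers.

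*bath-41* was the one called member that was detected in every library. It had 2.58 and 1.28 CPM in N2 muscle and 29.0 and 27.1 CPM in non-muscle cells (fitted log2 change -2.34, SE 0.50, FDR = 0.0079). Its exons overlap a gene on the other strand, so its counts are uncertain where the library did not keep strand.

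**Figure D2:**
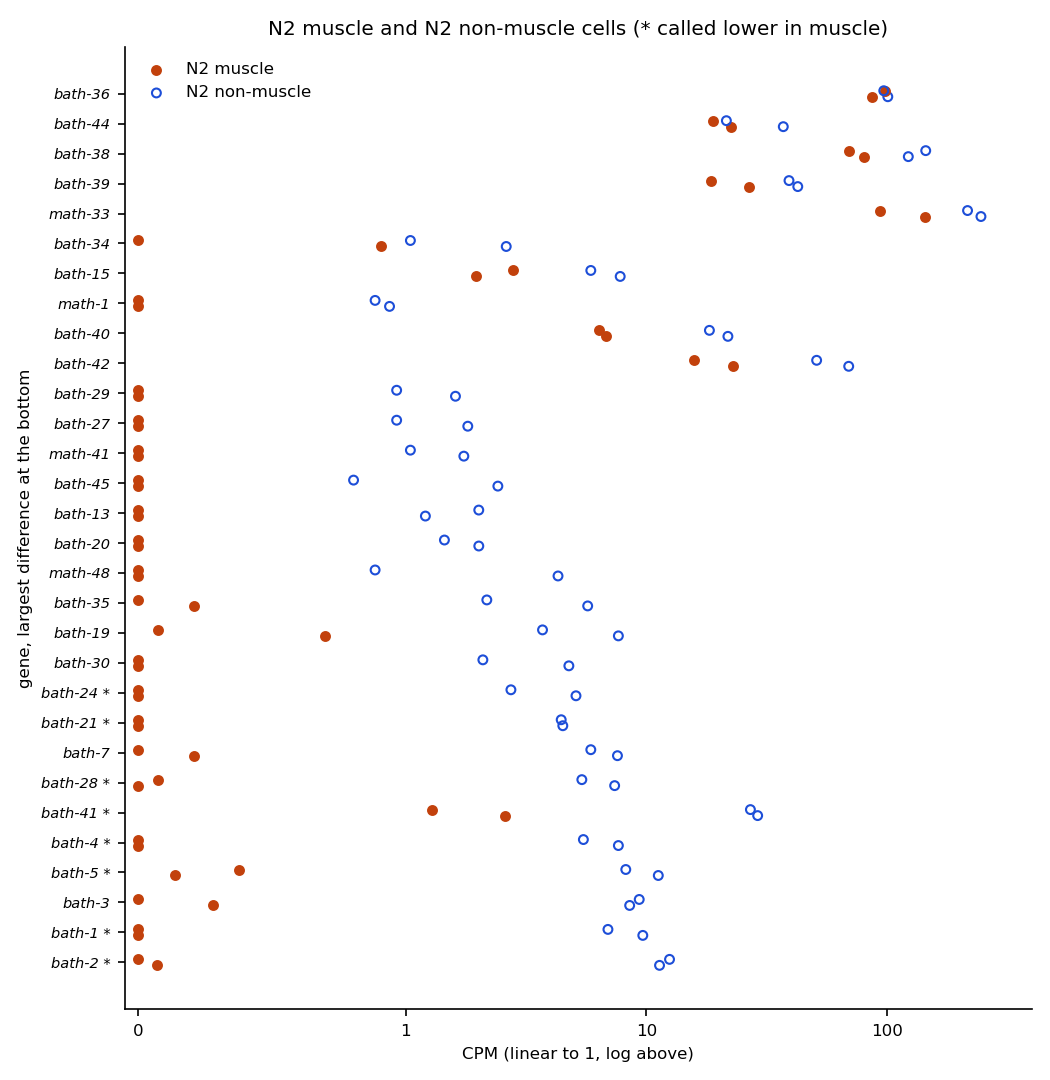
CPM of the 30 members tested between N2 muscle (filled points) and N2 non-muscle cells (open points), 1 point per library, on an axis that is linear up to 1 CPM and logarithmic above. Genes are ordered by the difference, and the 8 marked with an asterisk were called lower in muscle, where *bath-1*, *bath-4*, *bath-21* and *bath-24* are at 0 in both libraries.

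For the abundant members the change in this comparison depended on the scaling. Over all genes tested the median fitted change was -0.57 and the median on the study's scale, log2(scaled count + 8), was -1.73, so the scaling decides the sign of small changes. *bath-36* had 86.8 and 97.6 CPM in N2 muscle and 101 and 96.9 CPM in non-muscle cells, with a fitted log2 change of 1.40 (SE 0.16) but -0.10 on the study's scale. *bath-38* and *bath-39* had fitted changes of 0.67 and 0.66 that turned to -0.84 and -0.85 when library totals replaced the TMM factors. With library totals 20 members were called lower in place of 8, and all genes divided into 866 higher and 6374 lower in place of 1110 and 2838. Leaving out 1 library left between 1 and 5 members called lower, with *bath-2* called in each case. *bath-4*, *bath-5*, *bath-21*, *bath-24* and *bath-28* lost the call without any 1 of the 4 libraries (FDR up to 0.12).

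Several markers of other cell types were also lower in N2 muscle. The 9 germline markers summed to 40.7 and 24.98 CPM in N2 muscle and 2793 and 2020 CPM in non-muscle cells, and 8 of the 9 were called lower. Of the 6 seam, 5 tested hypodermal and 3 tested glial markers, 5, 5 and 3 were called lower. Of 3 tested intestine and 6 pharynx markers, 1 and 3 were called lower. Neuron markers went the other way, with 2 of 7 called higher (*unc-13* and *sbt-1*) and 0 lower. They summed to 245 to 249.5 CPM in N2 muscle and 110 to 138 CPM in non-muscle cells. The part of all these markers in the result was not tested. The median fitted log2 change of the 30 members was -5.09, or -3.71 with members at or near 0 in muscle set to their floor or counting ratio, and since 21 of them passed the filter through non-muscle cells these medians describe the tested members only.

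Between N2 seam cells and N2 muscle the same question was asked for the epidermal sort. Of 10 members tested, *bath-41* was called higher in seam cells and none was called lower, where 29.3% of all 10948 genes tested were called higher and 14.8% lower. It had 30.1 and 30.4 CPM in N2 seam cells and 2.58 and 1.28 CPM in N2 muscle (fitted log2 change 2.99, SE 0.36, FDR = 0.00070), and both seam libraries stood far above both muscle libraries. *bath-40* had 30.7 and 23.2 CPM in seam cells and 6.78 and 6.34 CPM in muscle without reaching the call (fitted log2 change 1.06, FDR = 0.011). *bath-42* had 59.0 and 64.6 CPM in seam cells and 22.9 and 15.8 CPM in muscle (fitted log2 change 0.71, FDR = 0.030).

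In the other direction *bath-39* had 17.8 and 15.9 CPM in N2 seam cells and 26.7 and 18.6 CPM in N2 muscle, with a fitted log2 change of -1.39 at FDR = 0.0031, below the 2-fold rule on the study's scale. *bath-15* had 0.750 and 1.49 CPM in seam cells and 1.96 and 2.79 CPM in muscle (fitted log2 change -2.04, FDR = 0.030). *math-33*, the deubiquitinase gene, had 154 and 152 CPM in seam cells and 143 and 93.7 CPM in muscle, and its fitted change of -0.60 turned to 0.37 with library totals. With library totals 4 members were called higher, and all genes divided into 5001 higher and 1478 lower in place of 3205 and 1624. The median fitted change was 0.41 over all genes and -0.03 over the 10 members. The tissues came from different lines, reporters, sorts and tables, which cannot be told apart from the tissue.

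In *met-2* muscle, 2 *bath* genes of the largest group on chromosome II stood out against an almost silent N2 level. Against N2 muscle, *bath-2* and *bath-1* were called higher among 19 tested members, and none was called lower. Over all 9167 genes tested, 2.17% were called higher and 0.0655% lower. Of the 19, 9 had 10 counts in both N2 libraries. The other 10 passed the filter on low counts through a mutant group, and a member that passes in this way had to differ between some groups.

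*bath-2* had 14.2 and 21.2 CPM in *met-2* muscle and 0.0699 and 0 CPM in N2 muscle. That is 476 counts against 1 and a ratio of 484, with a 95% counting interval of 86.4 to 19138 (FDR = 3.2e-05 in edgeR's quasi-likelihood test). *bath-1* had 4.02 and 2.31 CPM in *met-2* muscle and no count in N2 muscle, at least 29.5-fold higher (FDR = 0.0080). *bath-2* remained called in all 10 alternatives (other scalings, filters, fits and single libraries left out), whereas *bath-1* lost the call under several of them, among these every fit with 1 of the 4 libraries left out (FDR up to 0.051).

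Further *bath* genes of chromosome II gave values in the same direction short of the call, *bath-30* and *bath-28* from the second group and *bath-19* from the largest. *bath-30* had 1.76 and 4.32 CPM in *met-2* muscle and no count in N2 muscle, at least 27.4-fold higher (FDR = 0.011). *bath-28* had 1.84 and 2.47 CPM in *met-2* muscle against 0 and 0.0755 CPM in N2 muscle (FDR = 0.035), and *bath-19* had 2.68 and 3.01 CPM against 0.699 and 0.0755 CPM (fitted log2 change 2.82, SE 0.98, FDR = 0.23). In 10 of the 19 tested members both *met-2* libraries lay above both N2 libraries and in 1, *bath-39*, below, where 23.6% of all tested genes lay above and 19.2% below. Of the 19, 16 were detected in both *met-2* libraries and 9 in both N2 libraries. The direction was thus partly set by the filter on low counts, and these counts describe the tested members only.

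The double mutant gave the same pair of called members. In double mutant muscle against the same N2 libraries, *bath-2* and *bath-1* were called higher among 19 tested and none lower, where 2.36% of all tested genes were called higher and 0.207% lower. *bath-2* had 12.8 and 11.2 CPM in double mutant muscle (330 counts against 1, ratio 332, 95% counting interval 59.1 to 13146, FDR = 5.1e-05). *bath-1* had 3.44 and 2.09 CPM and was at least 25.8-fold higher (FDR = 0.0082), a call lost in 7 of its 10 alternatives. Without the library labelled replicate 1 of double mutant muscle *bath-2* was called and *bath-1* was not. *bath-30* had 2.41 and 2.17 CPM and was at least 21.1-fold higher short of the call (FDR = 0.012), and *bath-28* had 2.69 and 2.72 CPM (FDR = 0.020). The single and double mutant share their N2 libraries, so the agreement between them is not independent.

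In *set-25* muscle no member was called in either direction by edgeR's quasi-likelihood test, where 0% of all tested genes were called, or by DESeq2, where 0.0327% were called higher and 0.0545% lower. In edgeR's quasi-likelihood test *math-41* alone was higher at an unadjusted p under 0.05 and no member lower, against 3.36% and 2.29% of all tested genes. *math-41* had 0.909 and 0.670 CPM in *set-25* muscle and no count in N2 muscle, at least 7.09-fold higher (FDR = 0.74). *bath-2* had 0.248 and 0 CPM in *set-25* muscle, and *bath-1* had no count there. The *met-2* and *set-25* libraries were thus far apart for these members, without a test between the mutants.

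The members that were abundant in N2 muscle gave no call in any muscle genotype. *math-33* had 138 and 117 CPM in *met-2*, 106 and 140 CPM in *set-25* and 128 and 126 CPM in double mutant muscle, against 143 and 93.7 CPM in N2 muscle. *bath-42* had 21.7 and 20.05 CPM in *met-2*, 24.9 and 16.6 CPM in *set-25* and 18.04 and 17.4 CPM in double mutant muscle, against 22.9 and 15.8 CPM in N2 muscle. For both genes the values of each mutant overlapped the N2 range.

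Over the 19 members tested in muscle the median fitted log2 change was 1.35 for *met-2*, 0.00 for *set-25* and 2.01 for the double mutant (1.01 with members near 0 in N2 at their floor or counting ratio), against -0.02, 0.02 and -0.01 over all genes. Over the 28 tested in seam cells it was 0.53 for *met-2*, -0.26 for *set-25* and 1.22 for the double mutant, against -0.03, -0.05 and 0.03 over all genes. Since many of these members passed the filter through a mutant group, the medians describe the tested members only.

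**Figure D3:**
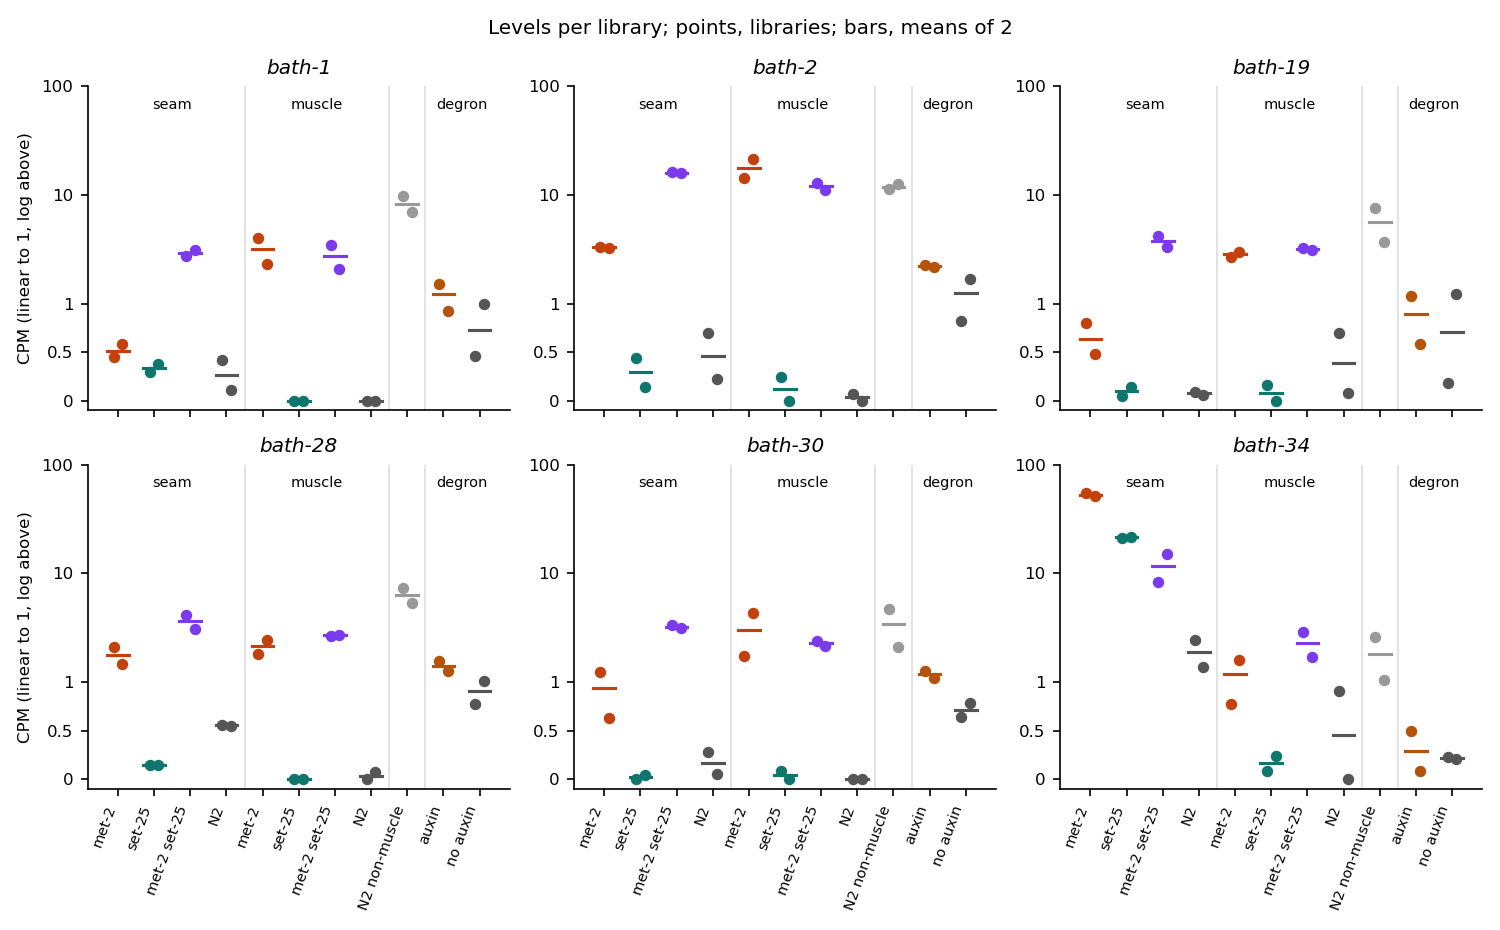
CPM of *bath-1*, *bath-2*, *bath-19*, *bath-28*, *bath-30* and *bath-34* in each library (points) with the mean of each group (bars), on an axis that is linear up to 1 CPM and logarithmic above. In muscle the *met-2* and double mutant points of the first 5 genes lie above the *set-25* and N2 points, and in seam cells the 3 mutants of *bath-34* lie above N2.

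In seam cells the member with the largest counts among those that rose was a different one, *bath-34*, on chromosome I. Of 28 members tested in *met-2* seam cells, *bath-34* and *bath-2* were called higher and none lower, where 2.08% of all 12591 genes tested were called higher and 3.11% lower. Of the 28, 11 had 10 counts in both N2 seam libraries and the other 17 passed through a mutant group. *bath-34* had 55.1 and 51.0 CPM in *met-2* seam cells against 2.44 and 1.38 CPM in N2 seam cells, 30.01-fold higher (fitted log2 change 4.91, SE 0.36, FDR = 0.00011).

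*bath-34* was also the one member called in *set-25* seam cells. There it had 21.02 and 21.8 CPM, 13.6-fold above N2 seam cells (fitted log2 change 3.76, SE 0.35, FDR = 0.00022), whereas 0.342% of all tested genes were called higher and 10.3% lower, and no member was called lower. In double mutant seam cells it had 8.36 and 15 CPM, 5.14-fold above N2 (fitted log2 change 2.36, SE 0.35, FDR = 0.0039). The libraries of the 3 mutants did not overlap, with *met-2* highest and the double mutant lowest. The mutants were not tested against each other. In the single mutants the call held in every alternative, and in the double mutant it was lost without either N2 library and when the groups were fitted alone (FDR up to 0.030).

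The adjacent gene on chromosome I, *bath-35*, was named here after its values were seen, and did not share that pattern. It had no count in *met-2* seam cells, 1 and 0 counts in *set-25* and 12 and 0 counts in double mutant seam cells, against 7 and 1 counts in N2 seam cells. In muscle *bath-34* had 0.776 and 1.62 CPM in *met-2*, 0.0827 and 0.244 CPM in *set-25* and 2.89 and 1.71 CPM in the double mutant, against 0.908 and 0 CPM in N2, and no call was made.

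Of the chromosome II members that rose in *met-2* muscle, *bath-2* was also called in seam cells. It had 3.31 and 3.28 CPM in *met-2* seam cells against 0.703 and 0.221 CPM in N2 seam cells, 7.54-fold higher (fitted log2 change 2.92, SE 0.50, FDR = 0.0060), a call lost in 4 of 10 alternatives. In double mutant seam cells it had 16.2 and 15.8 CPM, 28.3-fold higher (fitted log2 change 4.82, SE 0.50, FDR = 0.00070), called in all 10. In *set-25* seam cells it had 0.444 and 0.143 CPM, within the N2 range or below it.

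In double mutant seam cells 4 of 28 members tested were called higher (*bath-2*, *bath-19*, *bath-28* and *bath-34*) and none lower, where 2.16% of all tested genes were called higher and 0.723% lower. All 28 had 10 or more counts in both double mutant libraries, and 11 had them in both N2 libraries. *bath-19* had 4.16 and 3.34 CPM in double mutant seam cells against 0.0937 and 0.0552 CPM in N2 seam cells (170 counts against 3, ratio 49.9, 95% counting interval 16.8 to 244, FDR = 0.0022). *bath-28* had 4.16 and 3.09 CPM against 0.562 and 0.552 CPM, 5.41-fold higher (fitted log2 change 2.43, SE 0.44, FDR = 0.0099). Leaving out 1 library reduced the 4 calls to 1 or 2, with *bath-2* kept each time, and *bath-28* was called in 4 of 10 alternatives (FDR up to 0.065). DESeq2 called 9 members higher and none lower, where it called 3.61% of all genes higher and 1.13% lower.

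Further members gave values in the same direction short of the call in the double mutant. *bath-30* had 3.35 and 3.14 CPM in double mutant seam cells against 0.281 and 0.0552 CPM in N2 seam cells (fitted log2 change 3.94, SE 0.77, FDR = 0.013). *bath-1* had 2.75 and 3.14 CPM against 0.422 and 0.110 CPM (fitted log2 change 3.17, SE 0.65, FDR = 0.016). *bath-29* had 1.29 and 1.79 CPM against 0.0937 and 0 CPM (68 counts against 2, FDR = 0.017). In 17 of the 28 tested members both double mutant libraries lay above both N2 libraries and in 1 below, where 48.4% of all tested genes lay above and 13.2% below. All 28 were detected in both double mutant libraries, but 17 of them were not detected in both N2 libraries. The direction was thus partly set by the filter on low counts, and these counts describe the tested members only.

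Some members had lower values in mutant seam cells without being called. *bath-44*, one of the 8 detected everywhere, had 30.3 and 29.4 CPM in *set-25* seam cells against 61.8 and 55.5 CPM in N2 seam cells, a fitted log2 change of -0.68 at FDR = 0.0040 that stayed under 2-fold on the study's scale (-0.96). In *met-2* seam cells it had 35.8 and 34.9 CPM (fitted log2 change -0.60, FDR = 0.013), and in double mutant seam cells 64.3 and 51.7 CPM, a range that overlapped N2. *math-3* had 0.0987 and 0 CPM in *set-25* seam cells against 0.796 and 0.442 CPM in N2 (2 counts against 25, FDR = 0.083), and its exons overlap those of *math-26* on the same strand.

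Abundant members also differed by under 2-fold in mutant seam cells. *math-33* had 179 and 175 CPM in *set-25* against 154 and 152 CPM in N2 seam cells (fitted log2 change 0.50, SE 0.10, FDR = 0.0080). *bath-36* had 110 and 113 CPM against 97.9 and 93.5 CPM (fitted log2 change 0.51, FDR = 0.011). *bath-41* had 24.7 and 23.7 CPM in double mutant seam cells against 30.1 and 30.4 CPM in N2 seam cells (fitted log2 change -0.57, FDR = 0.019). The size of these changes depended on the scaling. Over all genes tested the median in *set-25* seam cells was -0.05 fitted and -0.30 on the study's scale. In double mutant seam cells it was 0.03 fitted and 0.26 on the study's scale.

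Whether the genotype effects differed between seam cells and muscle was tested as an interaction. No member passed an FDR of 0.01 among 30 tested in any of the 3 genotypes, out of 12887 genes tested in all. Of all genes, 0.101% passed with a change higher in seam cells than in muscle and 0.404% with a lower one for *met-2*, 0.248% and 1.54% for *set-25*, and 0.101% and 0.396% for the double mutant. At an unadjusted p under 0.05, 1 member was higher and 6 lower for *met-2* (6.09% and 8.98% of all genes), 2 and 2 for *set-25* (8.12% and 12.9%), and 0 and 4 for the double mutant (8.78% and 7.97%). DESeq2 called 1 higher (*bath-34*) and 2 lower (*bath-1* and *bath-2*) for *met-2*, and 1 higher (*bath-34*) for *set-25*, and none for the double mutant. Of all genes DESeq2 called more than edgeR did, 0.854% higher and 2.06% lower for *met-2*, 1.47% and 4.72% for *set-25*, and 1.06% and 2.2% for the double mutant. The smallest FDR in edgeR was that of *bath-34* for *set-25*, at 0.027, followed by *bath-2* and *bath-1* for *met-2*, at 0.028 and 0.039. For *bath-34* the sign turned without N2 muscle replicate 1, which left N2 muscle without a count of it.

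Depletion of tagged MET-2 protein was probed with auxin. No member was called in degron muscle grown with auxin against no auxin, out of 27 tested, where 0.913% of all 11393 genes tested were called higher and 0.816% lower. None had an unadjusted p under 0.05 in edgeR's quasi-likelihood test, where 6.19% of all tested genes were higher and 6.26% lower at that threshold, and DESeq2 called no member, against 1.01% of all genes higher and 1% lower. *bath-2* had 2.26 and 2.19 CPM with auxin and 0.823 and 1.70 CPM without (fitted log2 change 0.74, SE 0.48, FDR = 0.62). Both auxin libraries lay above both others, but the difference did not reach the call at that FDR.

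*bath-1* had 1.52 and 0.926 CPM with auxin and 0.457 and 0.993 CPM without, so the groups overlapped. *math-41* had the smallest p of the members, with 0.780 and 0.841 CPM with auxin and 0.229 and 0.331 CPM without (fitted log2 change 1.42, SE 0.75, FDR = 0.48). In 8 of the 27 tested members both auxin libraries lay above both others and in none below, where 27.3% of all tested genes lay above and 15.3% below. The median fitted log2 change was 0.42 over the 27 members and 0.00 over all genes. Of the 27, 20 were detected in both auxin libraries and 16 in both libraries without auxin. The direction could thus be partly set by the filter on low counts, and this median and these counts describe the tested members only.

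The 65 members not detected in every library summed to 73.6 and 64.8 CPM in *met-2*, 25.9 and 27.4 CPM in *set-25* and 65.4 and 67.5 CPM in double mutant seam cells, against 16.7 and 7.40 CPM in N2 seam cells. In muscle they summed to 37.3 and 45.6 CPM in *met-2*, 6.70 and 4.26 CPM in *set-25* and 37.1 and 31.0 CPM in the double mutant, against 4.82 and 3.77 CPM in N2. With auxin they summed to 31.3 and 21.8 CPM, against 11.48 and 23.8 CPM without. N2 non-muscle cells had 121 and 91.7 CPM. In *met-2* and *set-25* seam cells most of the sum was *bath-34*, which had 21.02 and 21.8 CPM in *set-25*. The large group on chromosome II summed to 26.2 and 32.2 CPM in *met-2* and 25.1 and 19.47 CPM in double mutant muscle, against 1.40 and 0.453 CPM in N2 muscle, and to 34.4 and 33.1 CPM in double mutant seam cells, against 5.43 and 1.27 CPM in N2 seam cells. It thus held most of the sum in *met-2* and double mutant muscle and about as much as all other members together in double mutant seam cells.

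Germline markers moved with several of these groups. The 9 markers summed to 1992 and 1987 CPM in *met-2*, 84.3 and 42.6 CPM in *set-25* and 2151 and 2162 CPM in double mutant muscle, against 40.7 and 24.98 CPM in N2 muscle. Most of that sum was *glh-1*, and without it the others summed to 184 and 214 CPM in *met-2* muscle against 11.04 and 10.2 CPM in N2 muscle. In seam cells the 9 summed to 172 and 157 CPM in *met-2*, 40.4 and 49.1 CPM in *set-25* and 428 and 390 CPM in the double mutant, against 43.6 and 35.5 CPM in N2. In degron muscle they summed to 424 and 406 CPM with auxin and 67.2 and 146 CPM without.

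Of 8 germline markers tested in each case, 6 were called higher in *met-2* and in double mutant muscle, 3 in *met-2* and in double mutant seam cells, 2 with auxin and none in *set-25* of either tissue. *nos-2* was at 0 in 11 of the 22 libraries, both *met-2* muscle libraries included. Their part in the *bath* results was not tested. For *bath-34* in *set-25* seam cells the germline sum stayed near that of N2. The seam marker sum was 364 to 715 CPM in *set-25* against 1819 to 1900 CPM in N2 seam cells. Of the 6 seam markers 1, *grd-10*, was called lower, and it made up most of the N2 sum. It had 433 and 166 CPM in *set-25* against 1603 and 1709 CPM in N2 seam cells. The median fitted log2 change of the 6 seam markers was 0.37.

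Markers of other cell types also differed between the groups. In double mutant seam cells the 6 intestine markers summed to 384 to 595 CPM against 106 to 171 CPM in N2 seam cells. The 6 pharynx markers summed to 81.04 to 172 CPM against 12.8 to 58.5 CPM. The 6 seam markers summed to 2571 to 3443 CPM against 1819 to 1900 CPM. The rise of the seam sum was mostly *grd-10*, at 2353 and 3213 CPM against 1603 and 1709 CPM in N2 seam cells. The median fitted log2 change of the seam markers was -0.09. In double mutant seam cells no intestine, pharynx or seam marker was called, and of 7 neuron markers *egl-21* was called higher. In *set-25* seam cells the intestine markers summed to 15.1 to 25.9 CPM, and 2 of 5 tested intestine, 4 of 7 neuron and 2 of 5 tested hypodermal markers were called lower. In *met-2* seam cells 1 hypodermal marker, *elt-3*, was called lower. In *met-2* and double mutant muscle the neuron markers summed to 172 to 192 and 156 to 173 CPM against 245 to 249.5 CPM in N2 muscle, with *sbt-1* called lower in both. In degron muscle the intestine markers summed to 193 to 209 CPM with auxin and 135 to 230 CPM without, against 5.73 to 5.74 CPM in N2 muscle. The 6 hypodermal markers summed to 34.4 to 37.5 CPM with auxin and 54.1 to 65.4 CPM without, against 12.4 to 14.2 CPM in N2 muscle. Of these *rol-6* was called lower with auxin. The part of these markers in the *bath* results, the auxin comparison included, was not tested.

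**Figure D4:**
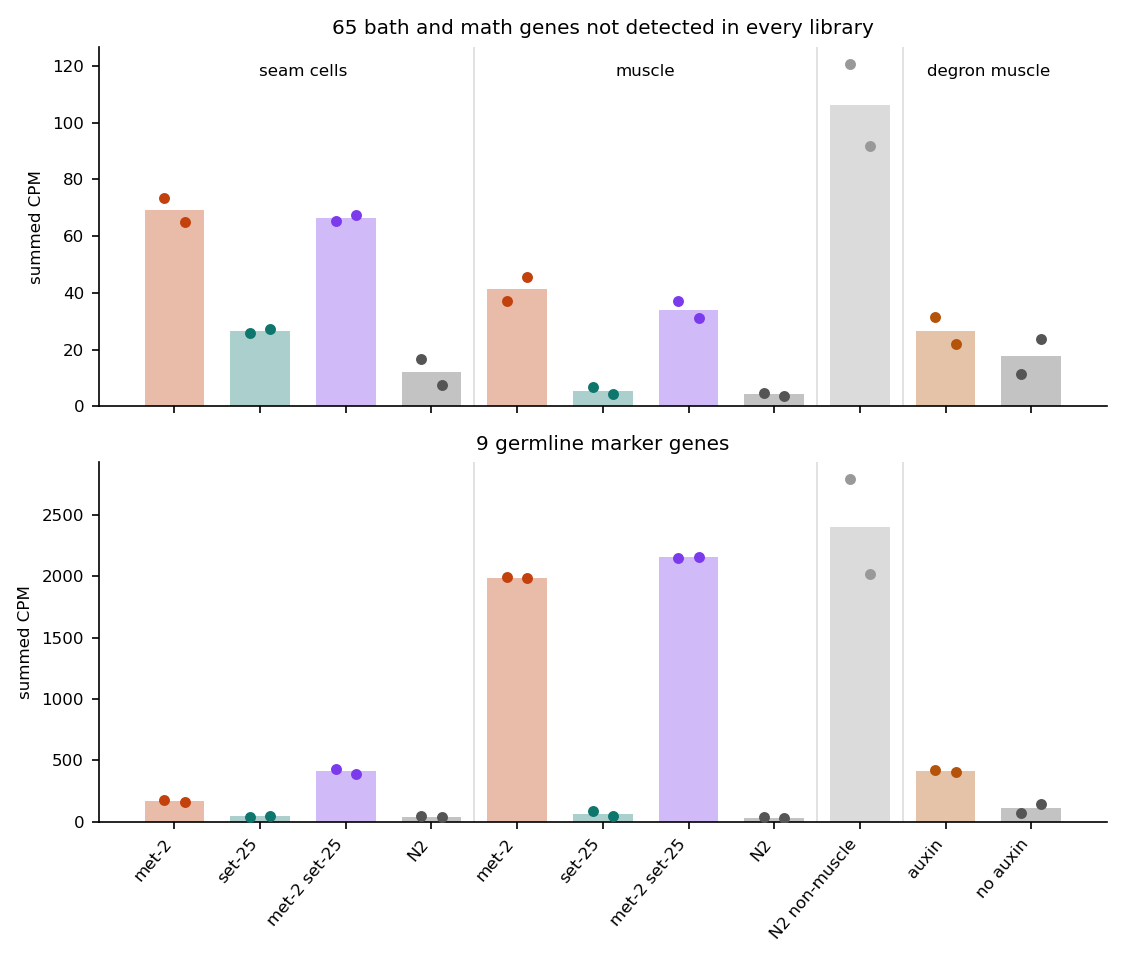
Summed CPM of the 65 members not detected in every library (top) and of the 9 germline markers (bottom), with points for libraries and bars for the mean of 2. Both sums are high in *met-2* and double mutant muscle and in non-muscle cells. The member sum of *set-25* seam cells, 25.9 and 27.4 CPM, lies above N2 seam cells with a germline sum near that of N2. Most of that member sum is *bath-34* alone, at 21.02 and 21.8 CPM.

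The other genes of the pathway were followed as lists. The 14 genes of the CUL-3 ligase and of neddylation, the modification that activates cullins, were all tested in every comparison. None was called in any mutant, with auxin or in N2 muscle against non-muscle cells. In N2 seam cells against N2 muscle 5 (*csn-5*, *ned-8*, *rbx-1*, *rfl-1* and *ubc-12*) were called higher, where 29.3% of all tested genes were called higher. The median fitted log2 change of the 14 was -0.12 in that comparison. Of 4 genes for MEL-26 substrates and partners none was called in a mutant or with auxin. Of 23 genes of other BTB or MATH proteins, between 8 and 15 were tested. Among these *btb-19* was called higher in *met-2* muscle, *btb-4* in double mutant seam cells and *btb-14* with auxin, and *kel-8* was called lower in *set-25* seam cells. Of 315 F-box genes, which encode adaptors of another cullin ligase, 57 were tested in muscle, where 4 were called higher in *met-2*, 5 in the double mutant and none in *set-25*. In seam cells 83 were tested, with 6 higher and 1 lower in *met-2*, 6 higher in the double mutant and 3 lower in *set-25*. Of all genes tested in muscle 2.17% were called higher in *met-2*, 2.36% in the double mutant and 0% in *set-25*. In seam cells 2.08% were called higher and 3.11% lower in *met-2*, 2.16% higher in the double mutant and 10.3% lower in *set-25*.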

How the data were processed

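Values are the raw read counts per gene that the authors deposited, in 3 tables of 20392 genes and 22 library columns, all used. The authors aligned reads with hisat2 through QuasR to ce10 and counted uniquely aligned reads on the annotated strand of WormBase exons. The sample labels describe Smart-Seq2, which does not usually keep strand, whereas the series text describes ribosomal RNA depletion. Counting unique reads lowers the values of near-identical copies, so members of these families are uncertain in level. Exons of 8 members overlap another gene on the same strand, among them *bath-28*, *bath-38*, *bath-39* and *math-3*. Those of 6 overlap a gene on the opposite strand, among them *bath-41* and *math-33*.

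Names, neighbours and chromosomes came from tables of the WBcel235 assembly, and no coordinates or sequences are given. RPKM used the deposited exonic widths. Counts were tested with edgeR 4.0.16 in R 4.3.3 (quasi-likelihood test, TMM factors, filterByExpr), Benjamini-Hochberg adjusted over all genes tested. Libraries of the 4 genotypes entered 1 fit per tissue, other comparisons had their own, and interactions over 16 libraries of both tissues. A gene was called at an FDR under 0.01 and over 2-fold on the study's scale, log2 of the count (rescaled to the average library total) plus 8, averaged per group. Interactions had no fold rule. Other values are fitted log2 changes with their SE. Exact binomial counting intervals and floors used group sums and library totals (scipy 1.17.1). The fits were tested on simulated data in which only genes with higher counts were changed. That simulation does not cover members at or near 0 counts.

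Alternatives were DESeq2 1.42.0, library totals, no filter, the fitted fold for the 2-fold rule, the groups alone, the replicate number as a block, each library left out, and detection at 1 count or 1 CPM. Members named are those called in any of 12 contrasts, the 5 most abundant per length in each of N2 muscle, N2 non-muscle cells, N2 seam cells and untreated degron muscle, up to 3 per direction and contrast with an unadjusted p under 0.05 and libraries that do not overlap, and *bath-42* and *math-33*. Members and lists were chosen with earlier results of these data known. The labels call replicates biological and do not say more. The p-values set differences between groups against a spread estimated over all libraries of a fit, with 2 replicates per group.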

Additional observations from a re-analysis of the deposited data

How the results depend on the processing

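With 2 libraries a group, member counts moved with the processing, and the cause was not tested where no library or gene was removed. In *met-2* muscle 4 members were called higher without the filter, 1 with the replicate block, 1 with the groups alone and 1 in each leave-one-out fit. In *met-2 set-25* muscle the counts were 4 by DESeq2, 1 with library totals, 4 without the filter, 1 with the block, 1 alone and 1 in each leave-one-out fit. In *met-2* seam cells they were 5 without the filter, 1 alone and 1 to 2 with a library left out, and in *met-2 set-25* seam cells 9 by DESeq2, 9 without the filter, 2 alone and 1 to 2 with a library left out. Between N2 muscle and non-muscle cells 1 member was called higher with the fitted fold, and 20 were called lower with library totals, 4 with the block (*bath-5*, *bath-21*, *bath-24* and *bath-28* were not) and 1 to 5 with a library left out. Between N2 seam cells and muscle 2 were called higher by DESeq2, 4 with library totals, 3 without the filter and 1 to 3 with a library left out, and 1 lower with the fitted fold. The interaction gave 1 higher and 2 lower for *met-2* by DESeq2 and without the filter, and for *set-25* 1 higher by DESeq2, 1 higher and 1 lower without the filter and 0 to 1 higher with a library left out. For *met-2 set-25* library totals divided all called genes into 21 higher and 31 lower in place of 13 and 51.

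The fitted change reversed for *bath-34* without N2 muscle replicate 1 in the interactions (-3.01 for *met-2* in a leave-one-out range up to 4.60, and -1.50 for *set-25* in a range up to 6.38), and with library totals for *bath-38* and *bath-39* between N2 muscle and non-muscle cells (-0.84 and -0.85) and *math-33* between N2 seam cells and muscle (0.37). Of the counts of called members, 199 of 248 alternative values stayed within 1.5 times or were equal. The *set-25* counts in both tissues (none in muscle, 1 in seam cells) and the auxin count of 0 were the same in every alternative run. Same-numbered libraries deviated together at r = -0.20 to 0.11, which does not pair them, and the block changed no other call count by over 1.5 times. For degron muscle a crossed pairing, added after the data were seen, also gave no call. Depth limits the members below 10 counts, where absence cannot be told from low expression.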
